A study of Mus musculus with 16 samples.

Results

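The genes described here encode the subunits that the BAF chromatin remodeling complex exchanges as neural progenitors become neurons, together with further subunits that are prominent in the neural forms of the complex. They are 10 of the 24982 genes in the count table: Actl6a, Actl6b, Phf10, Dpf1, Dpf3, Ss18, Ss18l1, Bcl11a, Bcl11b and Smarcd3. They were taken by name, with no threshold on a measured value, but earlier results of these data were known when the list was chosen. All 10 were present in both the count table and the TPM table (transcripts scaled to 1000000 per tumor), and all 10 had counts and were tested.

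BAF (SWI/SNF) complexes use the energy of ATP to move nucleosomes, and many of their positions can be filled by one of several related proteins. In the developing nervous system, dividing progenitors carry BAF53A (Actl6a), BAF45A (Phf10) and SS18 (Ss18), and newly formed neurons replace them with BAF53B (Actl6b), BAF45B or BAF45C (Dpf1, Dpf3) and CREST (Ss18l1). The exchange is known to be governed in part by the repressor REST and by the microRNAs miR-9-3p and miR-124, which act on the Actl6a transcript.

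RNA was sequenced from 16 primary rhabdoid tumors of 16 mice, all of genotype Smarcb1flox/flox;R26-CreERT2 on a mixed background of 129/SV and C57BL/6. Cre was expressed from the ubiquitous Rosa26 locus and activated by tamoxifen in the embryo, so that Smarcb1, itself a BAF subunit, was deleted in many tissues and not in a chosen cell type. There were 5 tumors within the brain (intra-CNS), all of the Shh subgroup, all from mice treated at embryonic day 6 (E6) and aged 30 to 180 days. The 11 Myc tumors comprised 6 intracranial tumors outside the brain (treated at E6, E7 or E8, aged 52 to 170 days) and 5 extracranial tumors of the back, jaw, nose or mouth (treated at E6 or E8, aged 80 to 210 days). The labels give the site, and the names Shh and Myc follow the study's own assignment. Subgroup and site relative to the brain are therefore the same division here and cannot be told apart, and only 2 Myc tumors share the induction day of the Shh tumors. Each tumor is named below by its mouse, and p-values measure the spread between tumors of different mice.

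Gene counts summed to between 17889968 and 110177889 per tumor. Levels below are TPM, which correct for gene length, and 3 counts were set as the limit of detection (0.0272 to 0.168 CPM, counts scaled to 1000000 per tumor). Reads of the targeted gene Smarcb1 remained in every tumor, from 3.99 to 9.91 TPM in 4 Shh tumors and from 6.48 to 43.7 TPM in the Myc tumors. The Shh tumor of 29048 stood apart with 58.1 TPM of Smarcb1. It also had 6725 TPM summed over 7 oligodendrocyte markers (42.7 to 175 TPM in the 15 other tumors) and the lowest summed proliferation markers among Shh tumors (249 TPM, against 603 to 956 TPM). The Myc tumor of R26P115 had the next highest Smarcb1 (43.7 TPM) and the lowest proliferation sum of all (150 TPM). Results that rest on the tumor of 29048 are given with and without it.

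Because miR-9-3p is a known regulator of the exchange, its sequence is shown with its seed (bases 2 to 8) in capitals, followed by the stretches of members' transcripts that hold the complement of that seed, also in capitals. The microRNA is from the RefSeq table of GRCm38.p6 and the transcript stretches are from GENCODE release M21 (GRCm38).
mmu-miR-9-3p: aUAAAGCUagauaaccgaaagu
Actl6a site: ctcaacgtctgtAGCTTTAgtaca
Bcl11a site: cagatcatgtgcAGCTTTAtttta
Bcl11b site: gtaaagccaagtAGCTTTAagata
The Actl6a stretch lies in the 3′ UTR at chr3:32726628-32726651 on the plus strand, and its match starts at base 38 of a UTR of 371 bases. The Bcl11a stretch lies in the 3′ UTR at chr11:24165681-24165704 on the plus strand, and the Bcl11b stretch in the 3′ UTR at chr12:107911590-107911613 on the minus strand. The letters AGCTTTA were searched on the transcript strand in 1 transcript per gene, and they occurred in the 3′ UTR of 10.5% of 20984 genes. They were not present in the UTRs searched for the other 7 members, and a match of letters is not evidence of a site in use. Mature microRNAs were not measured in these libraries, which were made from polyadenylated RNA.

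The promoters of Actl6b and Dpf3 are shown because these members had the largest log2 fold changes in edgeR's fit of Shh against Myc tumors. That order depends on counts near 0 in Myc tumors, and on log2(TPM + 1) Dpf3 had the smallest difference of the 5 members called (2.05, limma). The windows run from 250 to 51 bases before the RefSeq start, at chr5:137553296-137553495 on the plus strand for Actl6b and at chr12:83487787-83487986 on the minus strand for Dpf3 (GRCm38.p6). Capitals mark CCAAT, the letters of the CCAAT box, or its complement ATTGG.
Actl6b promoter: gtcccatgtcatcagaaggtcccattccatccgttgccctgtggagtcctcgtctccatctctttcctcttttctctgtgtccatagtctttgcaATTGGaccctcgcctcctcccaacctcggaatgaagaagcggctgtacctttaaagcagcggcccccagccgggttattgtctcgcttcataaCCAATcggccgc
Dpf3 promoter: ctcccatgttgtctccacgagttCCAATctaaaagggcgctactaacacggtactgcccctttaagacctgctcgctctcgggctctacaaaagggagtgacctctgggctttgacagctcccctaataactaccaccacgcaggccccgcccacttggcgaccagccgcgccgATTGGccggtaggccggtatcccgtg
Both windows held the letters at 2 positions, as did that of Dpf1, whereas that of Bcl11a held them at 1 position and those of Actl6a, Phf10, Ss18l1, Bcl11b and Smarcd3 at 0. Among all 27025 promoters in the table, 28.9% held the letters at least once in this window on either strand and 7.20% at least 2 times. This motif was chosen after the sequences had been seen. The left and right parts of the REST binding element (TTCAGCACC and GGACAGCGC, both strands) were in none of the 9 member windows available, and were in 0.240% and 0.203% of all windows, which says nothing about REST binding elsewhere. The promoter of Ss18 was not used here.

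Between Shh and Myc tumors, 5 of the 10 genes were past the threshold, all higher in Shh tumors: Actl6b, Dpf3, Ss18l1, Bcl11a and Smarcd3. A gene was called at a Benjamini-Hochberg adjusted p under 0.05 in edgeR's quasi-likelihood test and an absolute log2 fold change above 1. Of all 21854 genes tested, 12.9% were called higher and 13.1% lower in Shh tumors. On the TPM scale this balance moved, with 18.7% called higher and 6.06% lower by limma on log2(TPM + 1), and 22.7% and 7.41% on log2(TPM + 0.1). The same 5 members had no overlap between the groups in CPM normalised by TMM, with every Shh tumor above every Myc tumor, which held for 5.43% of genes. The median log2 fold change was 1.49 over the 10 members and -0.149 over all genes tested. The members that progenitors carry, Actl6a, Phf10 and Ss18, were not called, and neither were Dpf1 and Bcl11b.

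**Figure D1:**
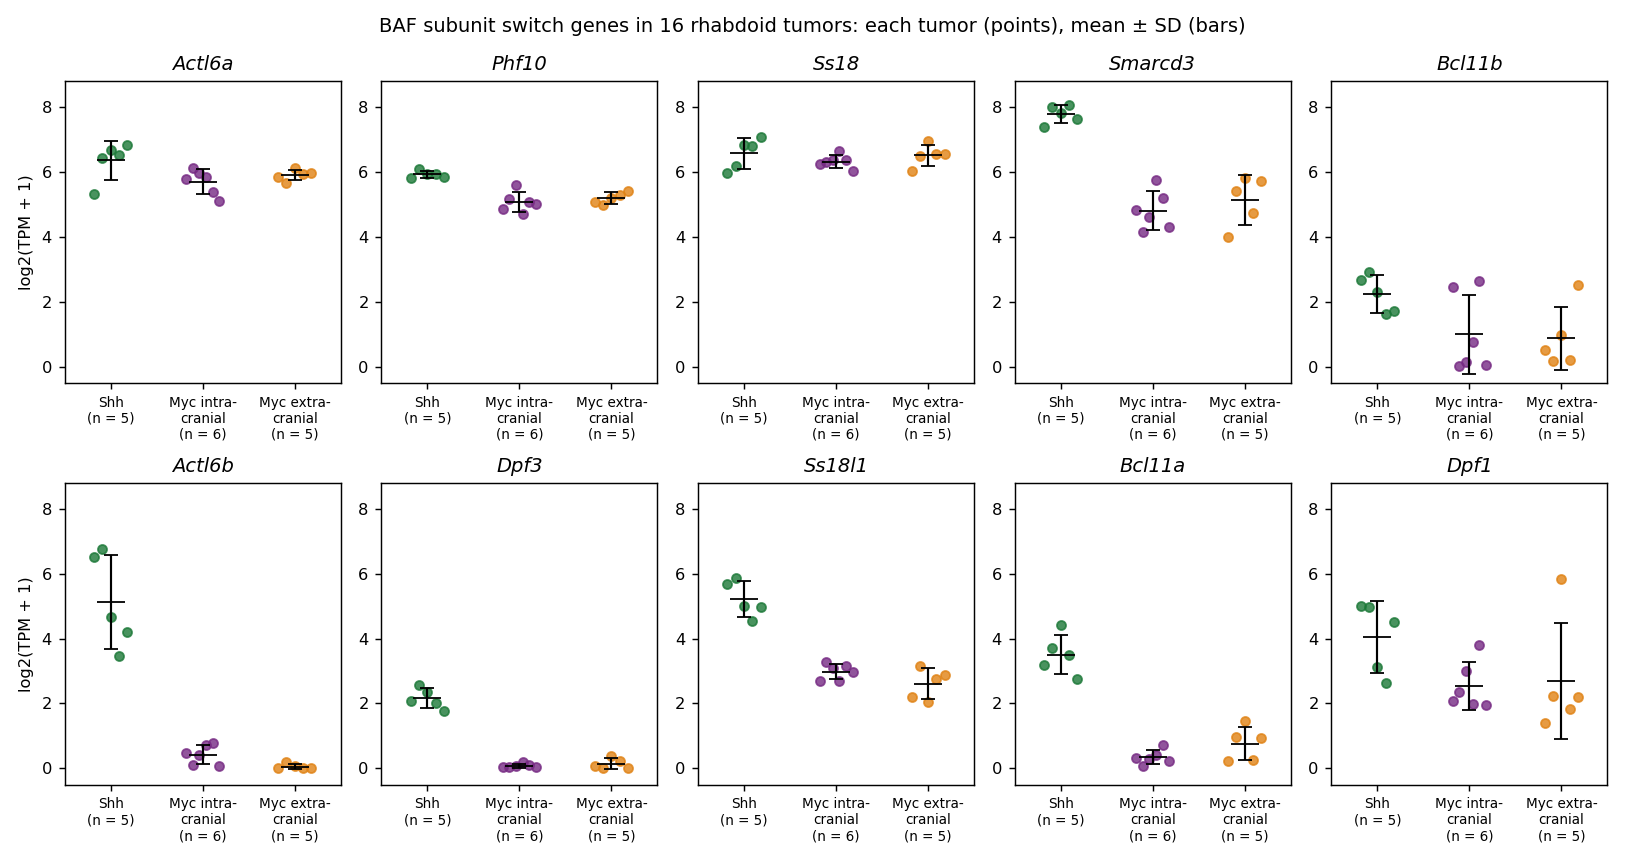
Level of each of the 10 subunit genes as log2(TPM + 1), with 1 point per tumor and the mean ± SD of each group. Actl6b, Dpf3, Ss18l1, Bcl11a, Smarcd3 and Phf10 are separated between Shh and Myc tumors on this scale, while Actl6a, Ss18, Dpf1 and Bcl11b overlap.

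The actin-related pair was examined first, with gene positions here and below from GRCm38 (GENCODE release M21). Actl6b (BAF53B, needed for dendrite growth in neurons; chr5:137553517-137569582, plus strand) was at 89.5 TPM in the Shh tumor of 29048, 107 TPM in 38594A, 24.1 TPM in 29050A, 10.1 TPM in R26P98 and 17.2 TPM in R26P87. In the 6 intracranial Myc tumors it ranged from 0.0588 to 0.717 TPM (median 0.357), and in the extracranial Myc tumors it was 0 TPM in 43825B, 43998A and R26P123, 0.0471 TPM in 43990A and 0.145 TPM in 43987A. The lowest Shh tumor thus lay above the highest Myc tumor, and 6 of the 11 Myc tumors were at or under 3 counts. Actl6b was called with a log2 fold change of 7.26 ± 0.95 (SE; adjusted p = 4.97e-05, edgeR), and of 6.94 ± 0.999 without the tumor of 29048 (22.8% of genes called in either direction). Because so many Myc tumors were near 0, its size depended on how low values were treated, from 4.86 by limma on log2(TPM + 1) to 7.14 on log2(TPM + 0.1).

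Actl6a (BAF53A; chr3:32706298-32726973, plus strand), the partner carried by progenitors, was at 39.1 TPM in 29048, 85.6 TPM in 38594A, 102 TPM in 29050A, 91.1 TPM in R26P98 and 112 TPM in R26P87. Myc tumors ranged from 33.1 to 68.4 TPM (median 56.8). The Shh tumor of 29048, which had one of the highest Actl6b levels, had the lowest Actl6a of the subgroup, and in TPM it alone fell within the Myc range. In TMM-normalised CPM it lay below every Myc tumor (24.4 against 34.5 to 66.5), and 3 of the other Shh tumors lay within the Myc range (52.8 to 65.3), with R26P87 above it (69.4). The log2 fold change of 0.11 ± 0.21 was not called (adjusted p = 0.719, edgeR), and without 29048 it was 0.29 ± 0.17 (adjusted p = 0.204, edgeR). The 3′ end of Actl6a overlaps exons of Mrpl47 on the opposite strand, and the strand setting of the counting is not given in the sources used here.

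As a share of the summed TPM of both genes, Actl6b made up 33.5% ± 27.2 in Shh (SD, n = 5) and 0.429% ± 0.556 in Myc tumors (SD, n = 11). It was the larger part in 29048 (69.6%) and 38594A (55.5%) and the smaller part in 29050A (19.1%), R26P87 (13.3%) and R26P98 (9.98%). The highest Myc tumor, R26P170, reached 1.72%. Without the tumor of 29048, the Shh mean was 24.5% ± 21.0 (SD, n = 4). In bulk RNA, fewer cells of a type and less RNA per cell cannot be told apart, so a share does not say how many cells had exchanged the subunit.

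The second pair was SS18 and CREST. Ss18l1 (CREST, a calcium-responsive transactivator of neurons; chr2:180042509-180070201, plus strand) was at 50.3 TPM in 29048, 57.9 TPM in 38594A, 31.2 TPM in 29050A, 22.3 TPM in R26P98 and 30.7 TPM in R26P87. Myc tumors ranged from 3.16 to 8.61 TPM, with medians of 7.16 TPM in intracranial and 5.71 TPM in extracranial tumors. The groups did not overlap, and the same tumors of 29048 and 38594A that led in Actl6b led in Ss18l1. Its log2 fold change was 2.08 ± 0.26 (SE; adjusted p = 3.62e-05, edgeR) and 1.97 ± 0.28 without 29048.

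Ss18 (the SS18 subunit; chr18:14624198-14682914, minus strand) was at 62.1 TPM in 29048, 71.2 TPM in 38594A, 112 TPM in 29050A, 110 TPM in R26P98 and 133 TPM in R26P87, and at 63.9 to 122 TPM in Myc tumors (median 81.8). The ranges overlapped, and the log2 fold change of -0.33 ± 0.18 was not called (adjusted p = 0.175, edgeR). Its sign depended on the scale, since it was 0.16 by limma on log2(TPM + 1). The median over all genes moved from -0.149 to 0.197 between these fits, and differences of this size are read relative to that shift. The share of Ss18l1 in the summed TPM of the pair was 29.4% ± 14.2 (SD, n = 5) in Shh and 7.01% ± 2.24 (SD, n = 11) in Myc tumors. It was 44.8% in both 29048 and 38594A, between 16.8% and 21.8% in the other 3 Shh tumors, and at most 9.88% in Myc tumors.

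**Figure D2:**
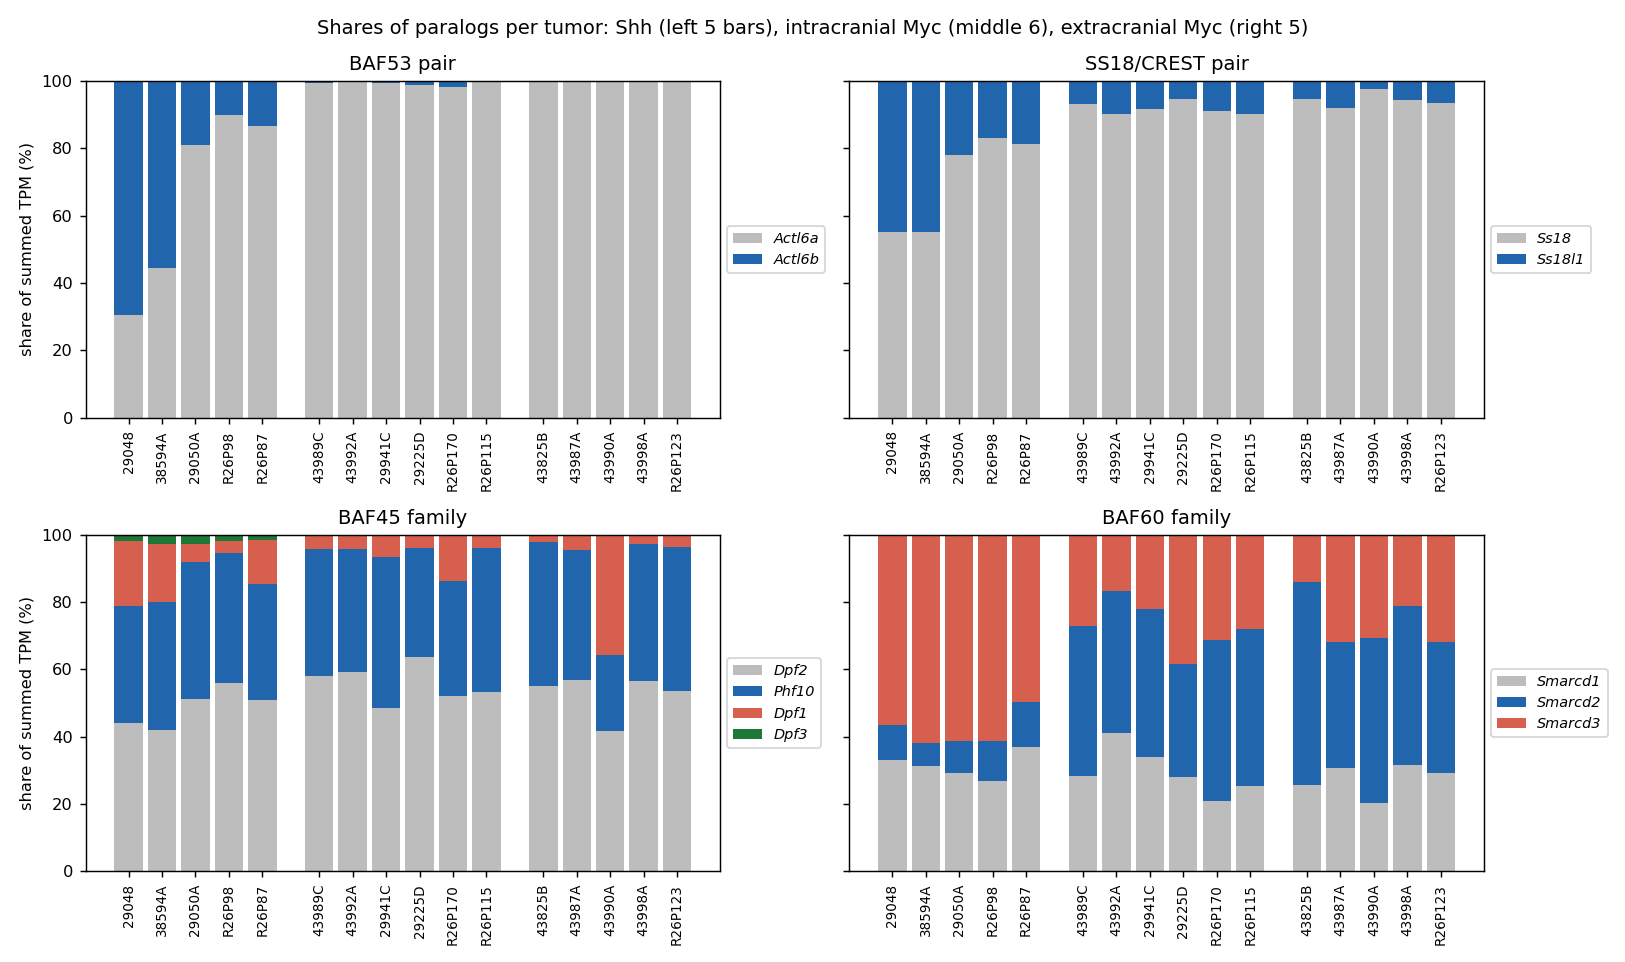
Shares of related subunits in their summed TPM, in percent, with 1 stacked bar per tumor in the order Shh, intracranial Myc, extracranial Myc. The Actl6b share is at least 9.98% in all 5 Shh tumors and at most 1.72% in Myc tumors, and Smarcd3 makes up at least 49.6% of the BAF60 family in Shh and at most 38.4% in Myc tumors.

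The BAF45 position can be filled by PHF10, DPF1, DPF2 or DPF3, which carry paired PHD fingers that read histone tails. Dpf3 (BAF45C; chr12:83213745-83487716, minus strand) was at 3.18 TPM in 29048, 4.93 TPM in 38594A, 4.16 TPM in 29050A, 3.08 TPM in R26P98 and 2.43 TPM in R26P87. In Myc tumors it ranged from 0 to 0.309 TPM (median 0.0496), with 6 of 11 tumors at or under 3 counts. The Shh tumors were close to each other, unlike for Actl6b, and none overlapped a Myc tumor. Dpf3 had a log2 fold change of 4.88 ± 0.71 (SE; adjusted p = 0.000111, edgeR) and 4.92 ± 0.76 without 29048. On log2(TPM + 1), where low genes are compressed, it was 2.05 by limma.

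Dpf1 (BAF45B, a neuron-specific subunit; chr7:29303951-29318243, plus strand) was at 30.8 TPM in 29048, 30.4 TPM in 38594A, 7.65 TPM in 29050A, 5.21 TPM in R26P98 and 21.7 TPM in R26P87. Of the Myc tumors, 10 had between 1.66 and 13.0 TPM, but the extracranial tumor of 43990A had 56.6 TPM, above every Shh tumor. Dpf1 was not called, with a log2 fold change of 0.56 ± 0.76 (adjusted p = 0.583, edgeR). That outcome rested on 1 tumor, since without 43990A it was 1.56 ± 0.49 and past the threshold (adjusted p = 0.0221, edgeR; 26.9% of genes called). The tumor of 43990A had the lowest neural progenitor marker sum of all 16 tumors (21.0 TPM over 8 genes) and 37.6 TPM summed over 10 neuronal differentiation genes, the second lowest. Among Myc tumors it was the highest in Actl6a (68.4 TPM), Ss18 (122 TPM), Dpf3 (0.309 TPM), Bcl11a (1.76 TPM) and Smarcd3 (55.2 TPM). It was also the highest Myc tumor in the neuronal gene Rbfox3 (1.90 TPM), but the lowest in Ss18l1 (3.16 TPM). The source of its Dpf1 was not tested.

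Phf10 (BAF45A, the progenitor form; chr17:14945009-14961273, minus strand) was at 55.4 TPM in 29048, 66.6 TPM in 38594A, 60.2 TPM in 29050A, 60.0 TPM in R26P98 and 56.9 TPM in R26P87. Myc tumors had 25.0 to 47.4 TPM (median 33.0). Every Shh tumor was above every Myc tumor in TPM, which also held for 12.9% of all genes, but in TMM-normalised CPM the groups overlapped (78.8 to 93.5 in Shh and 47.1 to 93.5 in Myc tumors). For Phf10 it was 0.27 ± 0.14 in log2 fold change (adjusted p = 0.164, edgeR) and 0.80 by limma on log2(TPM + 1), in both cases under the fold threshold. Exons of Phf10 overlap those of 1600012H06Rik on the opposite strand.

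Within the BAF45 family, Phf10 made up 37.3% ± 2.7 (SD, n = 5) of the summed TPM in Shh and 37.8% ± 6.4 (SD, n = 11) in Myc tumors. Dpf2, the broadly expressed member, made up 48.9% ± 5.7 and 54.4% ± 5.8. Dpf3 remained a small part even where it was higher, with 2.21% ± 0.58 in Shh and 0.0807% ± 0.0717 in Myc tumors. The family was thus led by Dpf2 and Phf10 in both subgroups, apart from the 35.6% share of Dpf1 in 43990A.

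The BAF60 subunits link the complex to transcription factors, and BAF60C (Smarcd3; chr5:24590818-24624411, minus strand) is the form best known from heart, muscle and neural development. Smarcd3 was at 165 TPM in 29048, 254 TPM in 38594A, 223 TPM in 29050A, 265 TPM in R26P98 and 198 TPM in R26P87. Myc tumors ranged from 14.8 to 55.2 TPM, with medians of 25.3 TPM in intracranial and 41.7 TPM in extracranial tumors. The groups did not overlap, and the log2 fold change was 2.23 ± 0.27 (SE; adjusted p = 2.94e-05, edgeR), and 2.32 ± 0.29 without 29048. Exons of Smarcd3 overlap those of Chpf2 on the opposite strand.

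The BAF60 family was divided differently in the subgroups. Of the summed TPM of Smarcd1, Smarcd2 and Smarcd3, Smarcd3 made up 58.1% ± 5.3 in Shh (SD, n = 5) but 26.7% ± 7.3 in Myc tumors (SD, n = 11). Smarcd2 (BAF60B) made up 10.3% ± 2.6 in Shh and 44.6% ± 7.0 in Myc tumors, with no overlap (6.66 to 13.4% against 33.7 to 60.3%). It had the highest share in 10 of the 11 Myc tumors, the exception being 29225D, where Smarcd3 had 38.4%. Smarcd1 (BAF60A) made up 31.5% ± 3.9 and 28.7% ± 5.9, which overlapped.

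BCL11A and BCL11B are zinc finger proteins known from blood and neuron development and are counted as BAF subunits. Bcl11a (chr11:24078056-24174123, plus strand) was at 8.05 TPM in 29048, 12.0 TPM in 38594A, 20.2 TPM in 29050A, 10.3 TPM in R26P98 and 5.77 TPM in R26P87. Myc tumors had between 0.0489 and 1.76 TPM, with medians of 0.235 TPM in intracranial and 0.901 TPM in extracranial tumors. The groups did not overlap, and the highest Shh tumor, 29050A, was not one of those that led in Actl6b. Its log2 fold change was 3.97 ± 0.60 (SE; adjusted p = 0.000146, edgeR) and 4.07 ± 0.64 without 29048.

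Bcl11b (chr12:107910403-108003602, minus strand), by contrast, varied widely within the Myc subgroup. It was at 5.34 TPM in 29048, 6.62 TPM in 38594A, 3.90 TPM in 29050A, 2.06 TPM in R26P98 and 2.26 TPM in R26P87. Among Myc tumors, 43989C, R26P170 and R26P123 had 4.45 to 5.18 TPM and the other 8 had at most 0.958 TPM. In TPM, those 3 Myc tumors lay within the range of the Shh tumors. In TMM-normalised CPM, R26P170 (18.6) lay above every Shh tumor (5.26 to 16.4), and 43989C (16.3) and R26P123 (16.2) lay just under the highest. The log2 fold change of 0.90 ± 1.03 was not called by edgeR (adjusted p = 0.508), whereas limma on log2(TPM + 1) gave 1.30 and a call (adjusted p = 0.0468; 24.8% of genes called). Its direction was not stable either, at -1.11 in the R26P mice alone and -0.0421 in tumors induced at E6 alone. As BCL11B is also a factor of T cells, the summed TPM of 7 T cell markers is given beside it: 17.6 TPM in 43989C, 6.61 TPM in R26P170 and 18.9 TPM in R26P123, within the 4.72 to 35.9 TPM of all Myc tumors. The part of T cells in these levels was not tested.

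**Figure D3:**
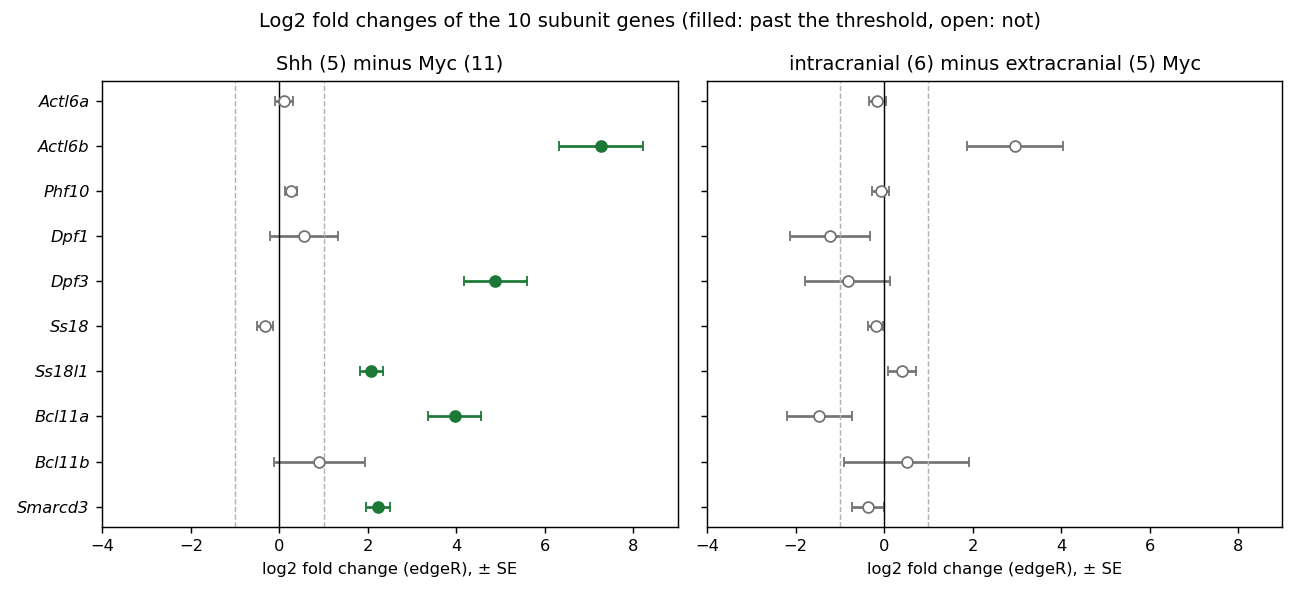
Log2 fold changes of the 10 subunit genes from edgeR, ± SE, for Shh minus Myc tumors and for intracranial minus extracranial Myc tumors, with filled points past the threshold. The 5 calls, between 2.08 for Ss18l1 and 7.26 for Actl6b, belong to the first comparison, and the second has none.

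Ordered by mean TPM in Shh tumors, Smarcd3 (221 ± 41 TPM, SD, n = 5) came first, followed by Ss18 (97.8 ± 30.1), Actl6a (86.0 ± 28.1), Phf10 (59.8 ± 4.3), Actl6b (49.5 ± 45.1), Ss18l1 (38.5 ± 14.9), Dpf1 (19.2 ± 12.2), Bcl11a (11.3 ± 5.5), Bcl11b (4.03 ± 1.97) and Dpf3 (3.56 ± 0.98). Between neighbours in this order, only Smarcd3 and Ss18 had ranges that did not overlap. In Myc tumors the order began with Ss18 (85.4 ± 16.6 TPM, SD, n = 11), Actl6a (55.6 ± 10.8), Phf10 (34.4 ± 6.3) and Smarcd3 (33.1 ± 15.3), whose neighbours overlapped. Dpf1 (9.21 ± 16.0), Ss18l1 (6.23 ± 1.77), Bcl11b (1.53 ± 2.11), Bcl11a (0.513 ± 0.512), Actl6b (0.217 ± 0.262) and Dpf3 (0.0827 ± 0.0924) followed, again with overlapping neighbours. The place of Dpf1 above Ss18l1 came from the tumor of 43990A, since by the median Dpf1 (3.62 TPM) was below Ss18l1 (6.38 TPM).

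Shh tumors were next compared with each site of Myc tumors alone, to see whether the differences held against both. The same 5 members were called each time, where 23.0% of genes were called in either direction against the 6 intracranial and 26.2% against the 5 extracranial Myc tumors. For Actl6b the log2 fold change was 6.53 against intracranial and 9.40 against extracranial tumors, for Dpf3 5.31 and 4.50, and for Ss18l1 1.90 and 2.33. For Bcl11a it was 4.81 and 3.37, and for Smarcd3 2.41 and 2.06. These comparisons share the Shh tumors. As all Shh tumors were induced at E6, they were also compared with the 2 Myc tumors induced at E6. Again the same 5 members were called (16.9% of genes called in either direction), with log2 fold changes of 6.45 for Actl6b, 5.04 for Dpf3, 2.17 for Ss18l1, 4.22 for Bcl11a and 2.56 for Smarcd3.

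Between the 6 intracranial and the 5 extracranial Myc tumors, none of the 10 members was called by edgeR, DESeq2 or limma. By edgeR, 0.00470% of 21261 genes were called (1 gene), and 1 of the 10 members had an unadjusted p under 0.05, as did 12.3% of all genes. DESeq2 called 2.30% of genes (490) and limma on log2(TPM + 1) 0.00471%. In every member the groups overlapped, in TPM and in CPM, whereas 0.541% of genes were without overlap and higher and 0.353% without overlap and lower in TMM-normalised CPM (0.513% and 0.334% in TPM). The median log2 fold change was -0.17 over the members and 0.02 over all genes. Simulated 8-fold changes were recovered in 58.5% and simulated 4-fold changes in 24.5% of 200 genes each with these tumor numbers, so that differences of that size can go uncalled. The changed genes were drawn from those with a mean count of at least 50. Recovery at the lower counts of Actl6b and Dpf3 in Myc tumors was not simulated.

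The member with an unadjusted p under 0.05 was Actl6b, at 0.367 ± 0.275 TPM (SD, n = 6) in intracranial and 0.0383 ± 0.0628 TPM (SD, n = 5) in extracranial Myc tumors. Its log2 fold change was 2.95 ± 1.08 (adjusted p = 0.356, edgeR), and 4.45 without the tumor of 43987A. These levels rested on 1 to 27 counts in intracranial and 0 to 5 counts in extracranial tumors. Bcl11a lay the other way, with a log2 fold change of -1.46 ± 0.74 (adjusted p = 0.446, edgeR). That of Dpf1 was -1.22 ± 0.90 (adjusted p = 0.580, edgeR), and it turned to 0.94 without the tumor of 43990A, while those of Bcl11a and Dpf3 were then -0.98 and -0.0655. This tumor is extracranial in the labels and intracranial in the study's table of mice, and with it counted as intracranial the log2 fold change of Dpf1 was 2.11 and that of Dpf3 turned from -0.83 to 0.58, neither called. For Actl6a, Phf10, Ss18, Ss18l1, Bcl11b and Smarcd3, log2 fold changes lay between -0.36 and 0.51. That of Bcl11b (0.51) was 2.11 without R26P123, -0.197 without R26P170 and -0.0283 without 43989C, none called.

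A list of 8 genes covered Rest and the microRNA hosts, which are tied to the exchange, and regulators of neuronal splicing. It held the repressor Rest and its cofactor Rcor1, the splicing regulators Ptbp1 and Ptbp2, and 4 transcripts that host the genes of miR-124 or miR-9. Between Shh and Myc tumors, 5 of the 8 were called, 4 higher and 1 lower in Shh tumors (12.9% and 13.1% of all genes). Without the tumor of 29048 there were 3, all higher: Ptbp2, Mir124a-1hg and Mir124-2hg (22.8% of all genes called in either direction). Ptbp1, a repressor of neuronal splicing that miR-124 targets, was lower in Shh tumors (204 ± 107 TPM against 296 ± 72 TPM; log2 fold change -1.05 ± 0.29, adjusted p = 0.0115, edgeR), but without 29048 it was -0.85 ± 0.27 and under the fold threshold. Ptbp2, its neural paralog, was higher (223 ± 62 TPM against 35.1 ± 17.4 TPM; log2 fold change 2.12 ± 0.28, adjusted p = 4.83e-05, edgeR). The direction of Ptbp1 and Ptbp2 between the subgroups was thus opposite.

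The miR-124 host transcript Mir124a-1hg was at 205 ± 42 TPM in the 5 Shh and 0.289 ± 0.337 TPM in the 11 Myc tumors (SD). It was called with a log2 fold change of 8.94 ± 0.88, as was Mir124-2hg with 8.90 ± 0.67, and 4 and 9 of the 11 Myc tumors were at or under 3 counts of them. Mir9-3hg was also called (4.30 ± 1.10), but 15.8 TPM of it was in 29048 and the other 4 Shh tumors had 0.473 to 1.73 TPM. Without 29048 its log2 fold change was 2.25 ± 1.03 and not called (adjusted p = 0.111, edgeR). Rest itself was at 12.3 ± 5.8 TPM in Shh and 14.8 ± 4.1 TPM in Myc tumors. It was not called (-0.79 ± 0.31, adjusted p = 0.0584, edgeR). Rcor1 (log2 fold change -0.10 ± 0.26) and the miR-9 host C130071C03Rik (2.29 ± 0.88; adjusted p = 0.0539, edgeR) were not called either. Levels of a host transcript are not levels of the mature microRNA.

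**Figure D4:**
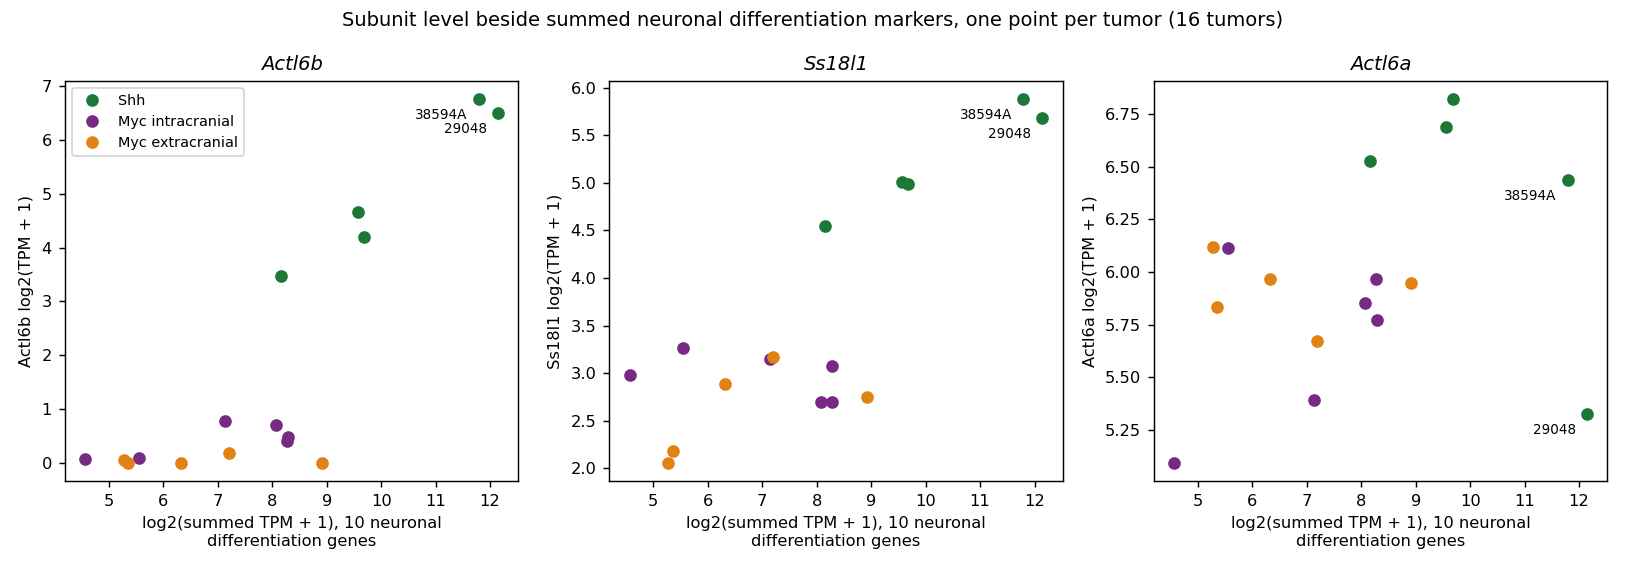
Actl6b, Ss18l1 and Actl6a in log2(TPM + 1) against log2(summed TPM + 1) of 10 neuronal differentiation genes, with 1 point per tumor. The Shh tumors of 29048 and 38594A have the highest sums (4520 and 3537 TPM) and the highest Actl6b and Ss18l1. Only 1 Shh tumor, R26P98 (284 TPM), has a sum within the range of the Myc tumors (22.7 to 482 TPM).

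Markers of neural cells were counted beside the 12.9% of all genes called higher in Shh tumors. Of 10 neuronal differentiation genes, 7 were called higher in Shh tumors, among them Tubb3 (log2 fold change 5.19 ± 0.70), which encodes a tubulin of neurons, while Snap25 (2.89 ± 1.09, adjusted p = 0.0507, edgeR), Stmn2 (1.53 ± 1.09) and Syt1 (1.68 ± 0.87) were not called. Of 8 neural progenitor genes, 5 were called higher, among them Fabp7 (7.06 ± 1.07), Msi1 (3.87 ± 0.80) and Sox2 (4.35 ± 1.24), and Nes was not (-0.67 ± 0.84). None of 6 proliferation genes was called by edgeR, and 0 had an unadjusted p under 0.05, against 44.4% of all genes. The counts called in both lists were the same without the tumor of 29048 (22.8% of all genes called in either direction).

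Within the Shh subgroup, the summed TPM of the 10 neuronal differentiation genes was 4520 in 29048, 3537 in 38594A, 819 in R26P87, 757 in 29050A and 284 in R26P98. The tumors of 29048 and 38594A, highest in these genes, were also the highest in Actl6b, Ss18l1, Dpf1 and Bcl11b. R26P98 was the lowest in these same members. The other members did not follow this order. Dpf3 was lowest in R26P87 (2.43 TPM) and Bcl11a was highest in 29050A (20.2 TPM). Smarcd3 was highest in R26P98 (265 TPM), and Smarcd3, Actl6a, Ss18 and Phf10 were lowest in 29048. The 8 neural progenitor genes summed to 1869 TPM in 29048 and to between 2351 and 3840 TPM in the other 4. In Myc tumors the neuronal sum ranged from 22.7 to 482 TPM. The highest Myc sum, in 43998A, was mostly 1 gene, with 449 TPM of Stmn2 and at most 0.155 TPM of Dcx, Elavl3, Elavl4, Map2 or Rbfox3. The tumors of 29048 and 38594A also came from the youngest mice, aged 45 and 30 days, against 87 to 180 days for the other Shh tumors. Within the Shh subgroup, age and these levels therefore cannot be told apart. With 5 Shh tumors no correlation was computed, and the part of normal brain cells in these levels was not tested.

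Markers of other cell types were counted in the same way, beside 12.9% of all genes called higher and 13.1% called lower. Of 7 oligodendrocyte markers 5 were called higher in Shh tumors and of 5 astrocyte markers 1. Without the tumor of 29048 none of either list was called by edgeR (22.8% of all genes called in either direction). At an unadjusted p under 0.05 there were then 0 and 1, against 40.9% of all genes in that fit. Without 29048, the oligodendrocyte sums of 47.5 to 175 TPM in Shh tumors overlapped those of Myc tumors (42.7 to 138 TPM). All 7 macrophage and microglia markers were called lower in Shh tumors (summed TPM 602 to 978, against 728 to 7489 in Myc tumors). So were 3 of 7 T cell markers, 5 of 8 skeletal muscle markers, 1 of 6 keratinocyte markers (close to the share of all genes) and 3 of 7 markers of mesenchyme and meninges. Without 29048 these counts were 1, 3, 0 and 3, while all 7 macrophage and microglia markers were still called (11.7% of all genes called lower in that fit). Of 6 markers of B and plasmacytoid cells, 2 were called lower and 1 higher. The part of these cells in the levels of the members was not tested.

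Outside the members, 21 further BAF subunit genes were measured, and 4 were called between Shh and Myc tumors (3 higher and 1 lower in Shh), with the shares over all genes as given above (12.9% and 13.1%). Without a fold threshold, and in limma on log2(TPM + 1) or log2(TPM + 0.1), 13 of the 21 were called, against 33.1%, 24.8% and 30.1% of all genes. The median log2 fold change of the 21 genes was 0.55, against -0.149 over all genes. Those higher were Smarcd1 (BAF60A; 1.28 ± 0.18, adjusted p = 9.84e-05, edgeR), Bcl7a (1.48 ± 0.44, adjusted p = 0.0168, edgeR) and Smarca2 (the ATPase BRM; 1.18 ± 0.43, adjusted p = 0.0440, edgeR). The one lower was Actb (-1.69 ± 0.31, adjusted p = 0.000586, edgeR), which encodes the actin that the complex shares with the cytoskeleton. The call of Bcl7a was lost without R26P87 (1.17 ± 0.46, adjusted p = 0.0723, edgeR). That of Smarca2 was less stable, since it was lost without any 1 of 13 of the 16 tumors (1.06 ± 0.47, adjusted p = 0.103, edgeR, without 29048) and kept only without 43990A, R26P170 or R26P115.

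The ATPase Smarca4 (BRG1) was at 165 ± 41 TPM in Shh and 72.9 ± 19.3 TPM in Myc tumors. It passed in p but not in fold (log2 fold change 0.66 ± 0.20, adjusted p = 0.0162, edgeR). The same was true of the scaffold Smarcc2 (BAF170; 0.92 ± 0.14) and, in the other direction, of Smarcd2 (-0.96 ± 0.22), the BAF60 member with the highest mean share in Myc tumors. Smarcd2 was past the threshold without any 1 of 43989C, R26P98, R26P87 or R26P115 (-1.08 without either of R26P98 and R26P87). Smarcc1 (BAF155; 0.41 ± 0.29) and Dpf2 (0.12 ± 0.13) were not past the threshold in either respect. The deleted gene Smarcb1 was not called with all tumors (-0.59 ± 0.63, adjusted p = 0.480, edgeR), but without the tumor of 29048 it was lower in Shh tumors (-1.97 ± 0.55, adjusted p = 0.0147, edgeR). Between intracranial and extracranial Myc tumors, 0 of the 21 genes were called by edgeR and 1 had an unadjusted p under 0.05 (0.00470% and 12.3% of all genes).

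**Figure D5:**
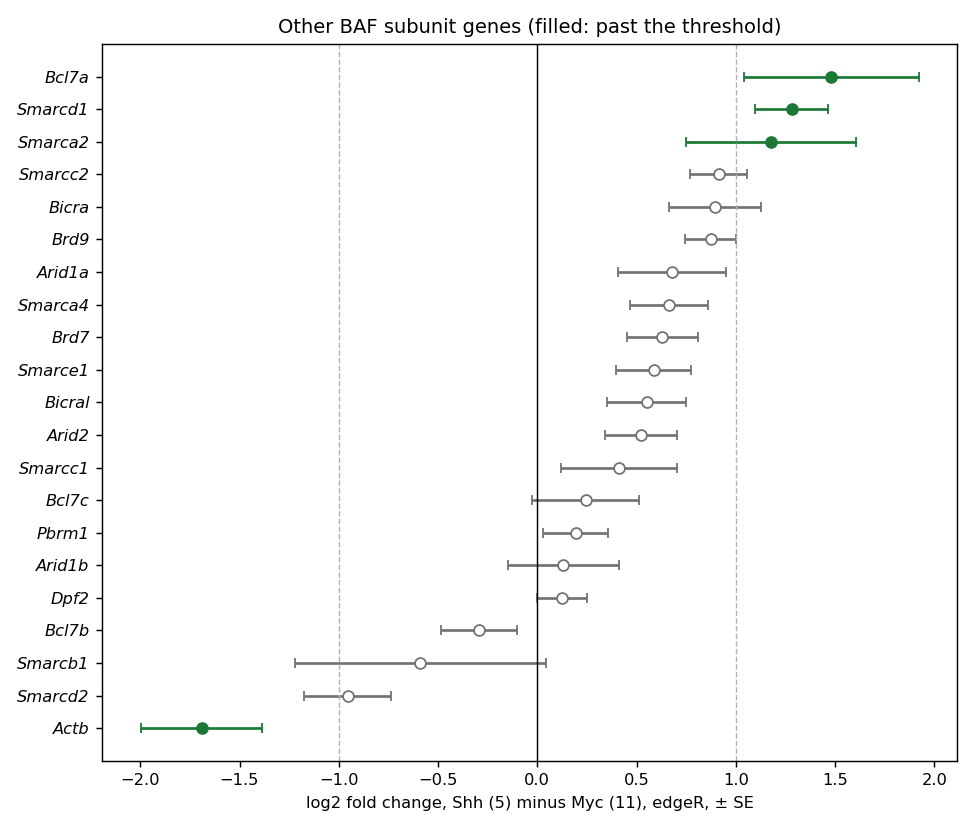
Log2 fold changes of 21 further BAF subunit genes between Shh and Myc tumors from edgeR, ± SE, with filled points past the threshold. Bcl7a, Smarcd1 and Smarca2 are higher and Actb is lower in Shh tumors.

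To find which genes followed each member most closely, log2(TPM + 1) was correlated over the 16 tumors with 14803 genes of at least 50 mean counts. Such a correlation is a description, since the tumors fall into their subgroups and the genes share libraries. Actl6b was most like Celf3 (Pearson r = 0.995), Ap3b2 (0.995) and Mapt (0.994), all of which are genes of neurons. Actl6a was most like Naaladl1 (0.952), Chchd1 (0.941) and Hnrnpab (0.940). For the other members the nearest gene was Stxbp5l for Dpf3 (0.994), Tet1 for Bcl11a (0.977), Gdap1 for Ss18l1 (0.976), Zfp939 for Smarcd3 (0.971), Dctn6 for Phf10 (0.931), Rab27b for Dpf1 (0.928), Mtrr for Ss18 (0.925) and Fam185a for Bcl11b (0.877).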

How the data were processed

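Polyadenylated RNA of 16 tumors was sequenced on stranded paired-end libraries. The submitters' processing notes name Trim Galore, FastQC, STAR 2.5.3a, Picard and mm10. The authors deposited raw counts per gene, without normalization, and TPM values, which correct for gene length and sum to 1000000 per tumor. The gene annotation behind them is not given in the sources used here. No value column was left unassigned. No 2 libraries held the same counts.

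Counts were tested with edgeR 4.0.16 in R 4.3.3 (TMM normalization, glmQLFit and glmQLFTest), over all genes with a count in any tumor of the fit and without covariates, with Benjamini-Hochberg adjustment over all genes. SE is the absolute log2 fold change over the square root of F. DESeq2 1.42.0 and limma 3.58.1 on log2(TPM + 1) or log2(TPM + 0.1) were alternatives, with other filters, size factors and tumors left out. The test was tried on simulated counts of 5 against 11 tumors, where 73.5% of 200 8-fold changes and 53% of 200 4-fold changes were found, with 14 and 5 false calls. Changed genes were drawn from those with a mean count of at least 50. Shares were computed from TPM and not tested.

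Gene positions came from GENCODE release M21 and promoters and the microRNA from RefSeq tables, in which 9 of 10 members were found. Total counts per tumor limit precision as stated, and floors cover counting error only. Members and gene lists were chosen with earlier results of these data known. All members are named, with the other BAF subunits past the threshold and 8 fixed partners, list genes of highest mean TPM, and nearest genes by correlation. Rest, Mir124-2hg, Mir9-3hg and C130071C03Rik were named after their values were seen. Tables were handled with Python 3.11.15, numpy 2.4.6 and pandas 2.3.3, and figures drawn with matplotlib 3.10.9.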

Additional observations from a re-analysis of the deposited data

Results flagged for a closer look

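In 30 groups of 5 or 6 tumors, each member was examined for a single tumor far from the others, where chance marks about 1 group in 20, and 2 were marked. Actl6a in the Shh tumor of 29048 was at 5.33 on the log2(TPM + 1) scale, and the next lowest Shh tumor was at 6.44. Dpf1 in the extracranial Myc tumor of 43990A was at 5.85, and the next highest extracranial tumor was at 2.22.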

How the results depend on the processing

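No paired analysis was possible because every tumor came from its own mouse. The calls of Actl6b, Dpf3, Ss18l1, Bcl11a and Smarcd3 between Shh and Myc tumors each held in 28 of 29 alternatives. The exception was the R26P mice alone (2 Shh against 3 Myc tumors), where 0 of 20347 genes, 0 members and 0 other BAF subunits were called and the log2 fold changes were 5.13, 5.59, 1.32, 3.29 and 2.17 in that order. Bcl11b was called by limma at 1.30 on log2(TPM + 1) and 2.53 on log2(TPM + 0.1), was -1.11 in the R26P mice alone and -0.0421 in tumors induced at E6 alone. Ss18 turned to 0.16 in both limma fits and to 0.0552 in the R26P mice alone, and Actl6a to -0.25 in the numbered mice alone. Both limma fits, and edgeR without a fold threshold, called 13 of the 21 other BAF subunits in place of 4 (24.8%, 30.1% and 33.1% of all genes). As single tumors were left out, 5 to 6 members and 3 to 5 other subunits were called. The ranges of log2 fold change were -0.00198 to 0.29 for Actl6a, 6.79 to 7.61 for Actl6b, 0.183 to 0.312 for Phf10, 0.321 to 1.56 for Dpf1, 4.75 to 5.30 for Dpf3, -0.457 to -0.199 for Ss18, 1.89 to 2.22 for Ss18l1, 3.64 to 4.35 for Bcl11a, 0.660 to 1.30 for Bcl11b and 2.15 to 2.32 for Smarcd3. The cause was not tested.

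Between intracranial and extracranial Myc tumors no alternative called a member, and edgeR's filter on low counts removed Actl6b and Dpf3. Signs turned for Actl6a (0.0368 in the numbered mice alone), Phf10 (0.0331 at E8 alone), Dpf1 (1.24 in the R26P mice alone, 2.11 with 43990A as intracranial), Dpf3 (4.47 and 0.58 in the same settings) and Bcl11b (-0.13 by limma on log2(TPM + 0.1), -0.78 in the R26P mice alone, -0.28 at E8 alone). With single tumors left out, Actl6b ranged from 2.66 to 4.45, Phf10 from -0.192 to 0.0222, Dpf1 from -1.67 to 0.935, Dpf3 from -1.20 to -0.0655, Bcl11a from -1.87 to -0.976 and Bcl11b from -0.197 to 2.11. On CPM in place of TPM, the mean Ss18l1 share was 36.4% in Shh and 9.60% in Myc tumors, with 53.4% in 29048 and 53.5% in 38594A. The mean Actl6b share on CPM was 29.7% in Shh and 0.338% in Myc tumors. In 38594A it was then 49.5%, no longer the larger part. With 6 of 11 Myc tumors at or under 3 counts of Actl6b and of Dpf3, depth limits the size of those differences.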
